A study of Mus musculus with 9 samples.

Results

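NRF2, the transcription factor encoded by Nfe2l2, was followed here with its repressor Keap1 and 8 of its best known target genes, Gclc, Gclm, Gsr, Slc7a11, Txnrd1, Srxn1, Nqo1 and Hmox1. These 10 genes were chosen by name as the core of the oxidative stress response, and their probes were found through the transcript accession that the array files give for each probe. They are 10 of 20660 genes with a symbol and 12 of 55681 probes, since Gsr and Hmox1 have 2 probes each and the other 8 genes have 1. Of the 10 genes, 9 passed the filter on dim probes and were tested among 26894 features (16116 with a gene symbol), while the Slc7a11 probe stayed too near background on all arrays to be tested.

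The arrays held total RNA of J1 mouse embryonic stem cells, an established line of strain 129S4/SvJae derived from the inner cell mass. There were 3 groups of 3 samples, kept for 24 h in the solvent DMSO, in 3 µM CHIR99021, an inhibitor of the kinase GSK3, or in 1 mM AICAR, which cells convert to an activator of the kinase AMPK. All groups were grown on gelatin without a feeder layer, in serum replacement with 1000 U/mL of the cytokine LIF and 100 µM of the reducing agent β-mercaptoethanol. The study asked which genes each compound regulates, and the labels do not say whether samples of a group were grown separately. The p-values therefore measure only how far these samples spread, and that spread may be technical.

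NRF2 is made continuously and is bound by KEAP1, which hands it to a CUL3 ubiquitin ligase for destruction. Oxidants and electrophiles modify cysteines of KEAP1, NRF2 then escapes, pairs with a small MAF protein and binds antioxidant response elements near genes for glutathione synthesis, thioredoxin reduction, quinone reduction and haem breakdown. GSK3 also marks NRF2 for destruction, through phosphorylation and the adaptor β-TrCP, and BACH1 competes with NRF2 for the same elements. The level of Nfe2l2 mRNA is therefore not a measure of NRF2 activity, which is largely set at the protein.

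The antioxidant response element has the core TGACNNNGC, which was searched on both strands of the RefSeq promoter windows of GRCm38.p6. Each window runs from 250 bases before to 50 bases after an annotated start. The tables hold windows for 7 of the 10 genes, and none was found for Gsr, Hmox1 or Gclc. The core was present for 4 of these 7 genes, Nfe2l2, Gclm, Txnrd1 and Srxn1, in 4 of their 9 windows. It was present in 12.4% of all 32851 windows and for 14% of 27025 genes with any window. The sequence around each match is printed 5′ to 3′ on the strand of the gene, to show where the core lies, with the core in capitals; a match on the reverse strand reads GCNNNGTCA. The Nfe2l2 stretch is chr2:75704849-75704913 on the minus strand, and its core TGACTCCGC begins 240 bases before the start. The Gclm stretch is chr3:122245377-122245477 on the plus strand, with TGACGGTGC on the reverse strand, 134 bases before the start. The Txnrd1 stretch, chr10:82859068-82859168 on the plus strand, belongs to 1 of that gene's 3 windows and has TGACAAAGC on the reverse strand, 92 bases before the start. The Srxn1 stretch, chr2:152105542-152105571 on the plus strand, has TGACCTAGC on the reverse strand at base 29 after the start.
Nfe2l2: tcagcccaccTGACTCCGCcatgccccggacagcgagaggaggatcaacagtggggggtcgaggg
Gclm: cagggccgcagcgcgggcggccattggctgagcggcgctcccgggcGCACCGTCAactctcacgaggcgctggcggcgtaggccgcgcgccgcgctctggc
Txnrd1: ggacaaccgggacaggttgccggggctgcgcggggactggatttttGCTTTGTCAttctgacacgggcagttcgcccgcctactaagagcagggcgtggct
Srxn1: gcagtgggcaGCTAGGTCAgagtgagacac
A match of these letters describes the window and does not show a bound site, and for Keap1, Nqo1 and Slc7a11 the search says only that these letters are not in their windows.

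A level below is the log2 of the processed signal minus the 75th percentile of that array, so that 0 is the level of a fairly bright spot, and levels of different genes are not set against each other because probes differ in brightness. A difference is a log2 fold change with the standard error of a limma fit over all 9 arrays, and a gene is said to have risen or fallen where its p-value, adjusted by the Benjamini-Hochberg method over all 26894 features, was under 0.05. The share of spots well above background was 62.8% to 67.2%, and the signal's 75th percentile 567 to 617. Each group was hybridised on its own slide and scanned by itself, so in every comparison the slide and the treatment cannot be told apart. All 8 stem cell markers looked at, Pou5f1, Nanog, Sox2 and Esrrb among them, were well above background on 9 of 9 arrays. Of these markers 3 rose and 2 fell with CHIR99021, and 4 rose and 2 fell with AICAR. Over all features 51.0% rose or fell with CHIR99021 and 60.5% with AICAR. Utf1 fell by 1.22 with CHIR99021 and 1.16 with AICAR. Tdgf1 fell by 0.60 with CHIR99021 and rose by 0.39 with AICAR. With CHIR99021 and AICAR, Esrrb rose by 0.73 and 0.44 and Sox2 by 0.26 and 0.36. Nanog rose by 0.29 with AICAR. Zfp42 rose by 0.32 with CHIR99021 and fell by 0.31 with AICAR, a fall lost under all 4 other scalings. The rises of Nanog with AICAR and of Sox2 and Zfp42 with CHIR99021 were each called under 3 of 4 other scalings. The summed level of the 8 stem cell markers, to which Dppa5a contributed most, was 536 to 554 times the 75th percentile in DMSO. It was 524 to 548 in CHIR99021 and 536 to 582 in AICAR. Of 8 fibroblast markers, Lum and Postn were not well above background on any array, and the others did not move together. With AICAR, Thy1 rose by 0.91 and Pdgfrb by 2.32, while Col1a2 fell by 1.29, Dcn fell by 2.93 (-0.41 with normexp) and Col1a1 fell by 0.51 (not called with the spike-in scaling). The summed level of all 8 fibroblast markers, to which Thy1 contributed most, was 2.06 to 2.22 in DMSO. It was 2.22 to 2.36 in CHIR99021 and 3.26 to 3.93 in AICAR. The part of these markers in the results below was not tested. RNA was taken from whole cultures, so fewer cells that express a gene and less of its RNA per cell cannot be told apart.

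CHIR99021 was compared with DMSO to see how GSK3 inhibition changed these genes. Nfe2l2, Keap1 and the glutathione reductase Gsr rose by small amounts, between 0.24 and 0.35 on the log2 scale. Both subunits of glutamate-cysteine ligase, Gclc and Gclm, and the sulfiredoxin Srxn1 fell. Txnrd1, Nqo1 and Hmox1 did not pass the test. The 3 rises and 3 falls are 6 of 9 genes, where 51.0% of all features passed (30.4% higher and 20.5% lower), so the number of called genes is close to what the whole array gave. In all 9 genes the CHIR99021 arrays lay wholly to one side of the DMSO arrays, as did 63.2% of features.

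AICAR was compared with DMSO to see how the AMP mimetic changed them. Gclc, Gclm, the thioredoxin reductase Txnrd1, Srxn1 and the haem oxygenase Hmox1 fell, by 0.28 to 2.29 on the log2 scale. None of the 9 rose, by the limma fit at an adjusted p under 0.05 or at an unadjusted p under 0.05. Nfe2l2, Keap1, Gsr and Nqo1 did not pass the test, but with another scaling of the arrays 1 or 2 of them, Keap1 and Gsr, were called higher. The 5 falls stand beside 60.5% of all features that passed (30.9% higher and 29.5% lower), and the groups did not overlap for 5 of 9 genes and for 67.0% of features. With the arrays scaled on their E1A spike-in controls, 70.4% of the calls over all features were rises, against 51.1% with the 75th percentile, and the median difference of all features moved from 0.03 to 0.19.

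**Figure D1:**
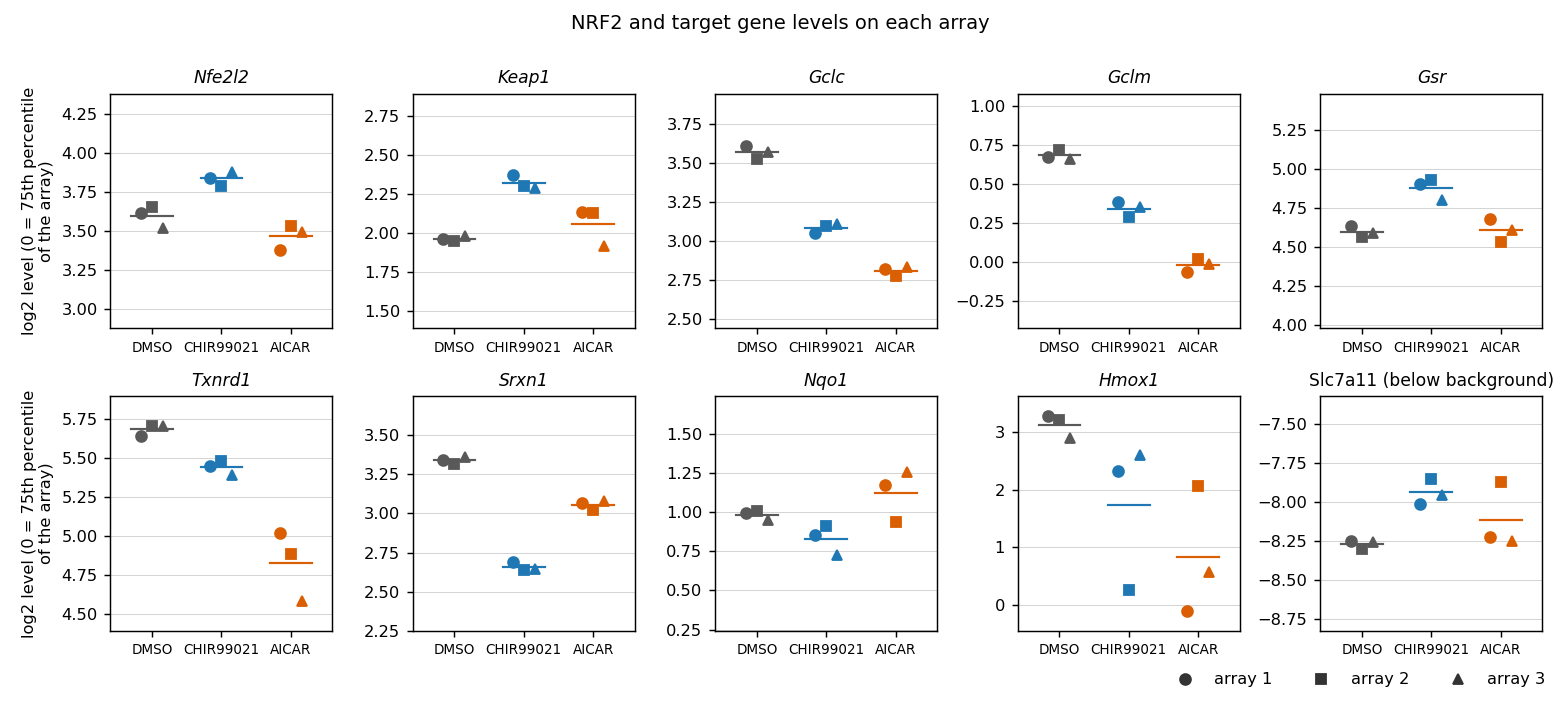
Log2 level of each of the 10 genes on each of the 9 arrays (0 is the 75th percentile of an array), with marker shape giving the array number and a bar at the mean of the 3 arrays of a group; each panel has its own vertical range. At this scaling Gclc, Gclm and Txnrd1 step down from DMSO to CHIR99021 to AICAR (the step of Gclc between the compounds is not called under the 4 other scalings), Srxn1 is lowest with CHIR99021, and Hmox1 spreads over more than 2 log2 units within CHIR99021 and within AICAR.

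The regulators came first. Nfe2l2 stood at 3.62, 3.65 and 3.52 on the DMSO arrays, at 3.84, 3.79 and 3.88 with CHIR99021 and at 3.38, 3.54 and 3.50 with AICAR. Every CHIR99021 array lay above every DMSO array, while 1 AICAR array reached into the DMSO range. The difference was 0.24 ± 0.06 (SE, n = 3 arrays per group, adjusted p = 0.0111) for CHIR99021 and -0.13 ± 0.06 (adjusted p = 0.100) for AICAR. The rise with CHIR99021 did not pass when the arrays were scaled by normexp (0.13, adjusted p = 0.189) or by the spike-in controls (0.20, adjusted p = 0.158). The AICAR difference was slightly above 0, at 0.03 to 0.05 and not called, under every other scaling tried.

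Keap1 stood at 1.96, 1.95 and 1.98 in DMSO, at 2.37, 2.30 and 2.29 with CHIR99021 and at 2.14, 2.13 and 1.91 with AICAR. The CHIR99021 arrays were the 3 highest of the 9, and 1 AICAR array was lower than all DMSO arrays. Keap1 rose with CHIR99021 by 0.35 ± 0.07 (adjusted p = 0.00286), and this call held in all 20 alternative settings, the 9 that leave out 1 array among them. For AICAR the difference was 0.10 ± 0.07 (adjusted p = 0.248), and without AICAR array 3 it was 0.17 and passed (adjusted p = 0.0211). It also passed, as a rise, with quantile normalisation, the spike-in scaling and the authors' normalised values. 

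Glutathione genes followed. Gclc, the catalytic subunit of glutamate-cysteine ligase and so of the first and limiting step of glutathione synthesis, stood at 3.61, 3.52 and 3.57 in DMSO, at 3.05, 3.10 and 3.11 with CHIR99021 and at 2.82, 2.78 and 2.83 with AICAR. The 3 groups formed 3 separate bands with no overlap. Gclc fell by 0.48 ± 0.04 with CHIR99021 (adjusted p = 7.28e-05) and by 0.76 ± 0.04 with AICAR (adjusted p = 4.25e-06), or 1.69 times lower. The gap between the compounds, 0.28 ± 0.04 (adjusted p = 0.000931), was not called under any of the 4 other scalings.

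Gclm, the modifier subunit that raises the efficiency of Gclc, stood at 0.68, 0.72 and 0.66 in DMSO, at 0.38, 0.29 and 0.35 with CHIR99021 and at -0.06, 0.02 and -0.01 with AICAR. It showed the same order of groups, again without overlap. It fell by 0.34 ± 0.05 with CHIR99021 (adjusted p = 0.000578) and by 0.70 ± 0.05 with AICAR (adjusted p = 8.04e-06). All 4 of these calls on the ligase held in all 20 alternative settings. Over the 9 arrays, Gclc and Gclm had the most alike patterns of any pair among the 9 genes. The root mean square difference between their centred log2 levels was 0.0802. Gsr and Keap1 were almost as alike, at 0.0845. Among 16071 features with a gene symbol, C1s1 lay nearest to Gclc, at 0.0333, and Wdr83 nearest to Gclm, at 0.0462. Both are named here after their values were seen. The likeness therefore does not set the ligase pair apart, and shared regulation of its subunits was not tested. These values were measured on the same arrays, and the comparisons with the 2 compounds share the DMSO arrays.

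Gsr, which returns oxidised glutathione to its reduced form, moved the other way from the synthesis genes with CHIR99021. Its tested probe stood at 4.63, 4.56 and 4.59 in DMSO, at 4.90, 4.93 and 4.80 with CHIR99021 and at 4.68, 4.53 and 4.60 with AICAR. Only the CHIR99021 arrays stood apart. Gsr rose with CHIR99021 by 0.28 ± 0.06 (adjusted p = 0.00426), and its second probe rose by 0.45 ± 0.06 (adjusted p = 0.000661 in a fit of each probe on its own). The rise was lost in 1 of 20 settings, the spike-in scaling (adjusted p = 0.147). With AICAR the difference was 0.01 ± 0.06 (adjusted p = 0.893) at the tested probe and 0.03 ± 0.06 at the other. That result depends on the scaling, since the tested probe rose by 0.20 to 0.29 with normexp, quantile normalisation or the authors' normalised values.

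Slc7a11, the cystine carrier that supplies cysteine for glutathione, was not well above background on any of the 9 arrays. Its probe stood at -8.25, -8.30 and -8.26 in DMSO, at -8.01, -7.85 and -7.95 with CHIR99021 and at -8.22, -7.87 and -8.25 with AICAR. All of these lie at the lower end of the measurable range, so no fold change or test is given. Slc3a2, the heavy chain that carries Slc7a11 and other amino acid carriers to the membrane, was well above background on every array and fell by 0.60 ± 0.07 with CHIR99021 (adjusted p = 0.000182) and by 0.34 ± 0.07 with AICAR (adjusted p = 0.00260). The fall with AICAR was lost with the spike-in scaling (adjusted p = 0.243) and with the authors' values (adjusted p = 0.0756), and was -0.17 with quantile normalisation. Slc3a2 is named here after its values were seen.

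The thioredoxin genes differed between the compounds in opposite directions. Txnrd1, the cytosolic thioredoxin reductase, stood at 5.64, 5.70 and 5.70 in DMSO, at 5.45, 5.48 and 5.39 with CHIR99021 and at 5.02, 4.88 and 4.58 with AICAR. The groups did not overlap, and the AICAR arrays spread widest. Txnrd1 fell with AICAR by 0.85 ± 0.10 (adjusted p = 0.000180), or 1.81 times, in all 20 alternative settings. With CHIR99021 the difference was -0.24 ± 0.10 and did not pass (adjusted p = 0.0806). The spread of the AICAR arrays enters that test: without AICAR array 1 the adjusted p was 0.0399, without AICAR array 3 it was 0.00877, and in a fit of the CHIR99021 and DMSO arrays alone it was 0.00640, all at an unchanged difference. It also passed with quantile normalisation (adjusted p = 0.0305) and with the authors' normalised values (adjusted p = 0.0381).

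Srxn1, the sulfiredoxin that repairs over-oxidised peroxiredoxins, stood at 3.35, 3.32 and 3.36 in DMSO, at 2.69, 2.64 and 2.65 with CHIR99021 and at 3.07, 3.02 and 3.08 with AICAR. The groups again did not overlap, but here CHIR99021 was lowest. Srxn1 fell with CHIR99021 by 0.68 ± 0.04 (adjusted p = 7.66e-06), or 1.61 times, the largest called change of the 9 genes with this compound, and it held in all 20 settings. With AICAR it fell by 0.28 ± 0.04 (adjusted p = 0.000565), and this was lost with normexp (-0.06, adjusted p = 0.269) and with the spike-in scaling (-0.12, adjusted p = 0.395), while quantile normalisation and the authors' values gave -0.15 and -0.16, both called.

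Nqo1, the quinone reductase often used as the marker of NRF2 activity, changed little. It stood at 0.99, 1.01 and 0.95 in DMSO, at 0.85, 0.91 and 0.73 with CHIR99021 and at 1.17, 0.94 and 1.26 with AICAR. The CHIR99021 arrays were the lowest, just under those of DMSO, and the AICAR arrays straddled DMSO. The differences were -0.15 ± 0.09 (adjusted p = 0.180) and 0.14 ± 0.09 (adjusted p = 0.209), with 95% confidence intervals of -0.36 to 0.05 and -0.07 to 0.34. Without AICAR array 2 the AICAR difference was 0.23 and passed (adjusted p = 0.0237), and with normexp the CHIR99021 difference was -0.23 and passed (adjusted p = 0.0231).

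**Figure D2:**
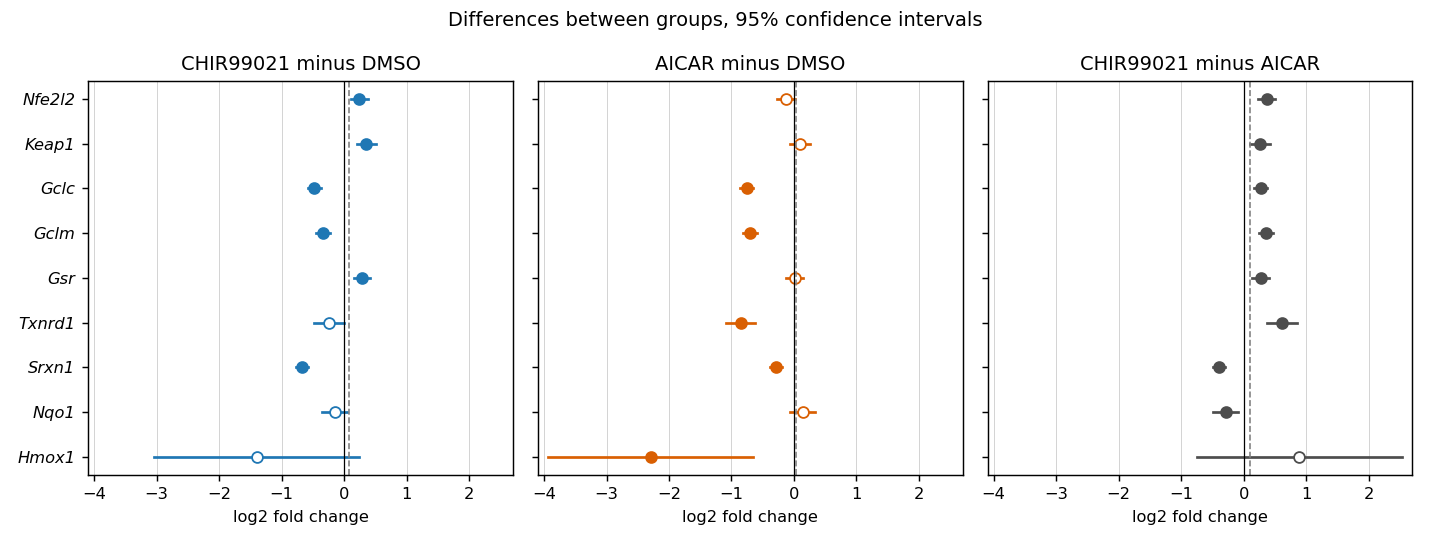
Log2 fold change of the 9 tested genes in the 3 comparisons with 95% confidence intervals from the limma fit; filled points have an adjusted p under 0.05, and the dashed line is the median of all 26894 features. The intervals of 8 genes are narrow, and that of Hmox1 runs from -3.93 to -0.66 for AICAR against DMSO.

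Hmox1, the stress-induced haem oxygenase that breaks haem into biliverdin, iron and carbon monoxide, differed from the other 8 genes in its spread. Its tested probe stood at 3.29, 3.22 and 2.90 in DMSO, at 2.33, 0.26 and 2.61 with CHIR99021 and at -0.11, 2.07 and 0.57 with AICAR. All treated arrays lay below all DMSO arrays, but CHIR99021 array 2 was far below the other CHIR99021 arrays and AICAR array 2 far above the other AICAR arrays. Its SD over the 3 arrays was 1.29 with CHIR99021, rank 100 from the top, and 1.11 with AICAR, rank 126. In DMSO the SD was 0.21, at percentile 83.6. Each rank is among the tested features with a value on all 3 arrays of that group. The difference was -1.40 ± 0.71 for CHIR99021 (adjusted p = 0.134) and -2.29 ± 0.71 for AICAR (adjusted p = 0.0227), with only the latter passing.

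The second Hmox1 probe gave the same order of arrays at a dimmer level. It stood at -0.45, -0.45 and -0.64 in DMSO, at -1.03, -1.96 and -0.97 with CHIR99021 and at -2.31, -1.50 and -1.84 with AICAR. CHIR99021 array 2 was again the lowest of its group and AICAR array 2 the highest. Its differences were -0.81 ± 0.29 (adjusted p = 0.0509) and -1.37 ± 0.29 (adjusted p = 0.00423) in a fit of each probe on its own. For the tested probe, the fall with AICAR was lost without DMSO array 1, DMSO array 2, AICAR array 1 or AICAR array 3 (adjusted p = 0.0609, 0.0578, 0.0767 and 0.0659). The difference ranged from -2.91 without AICAR array 2 to -1.82 without AICAR array 1. For CHIR99021 it was -0.66 (adjusted p = 0.374) without CHIR99021 array 2 and it passed under 1 setting, normexp (adjusted p = 0.0428).

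Other features shared the array pattern of Hmox1. With a gap of over 1 log2 unit, CHIR99021 array 2 lay below both other CHIR99021 arrays in 226 of 26823 features without a missing value, and AICAR array 2 lay above both other AICAR arrays in 103. In 44 features both held, and in 1 feature both held in the opposite direction. Of the 44, 5 have a gene symbol, Hmox1, Hmgb1, Gm5176, Lamtor2 and Sertad3, named here after their values were seen. Hmgb1, a chromatin protein, stood at 5.63, 4.44 and 5.75 with CHIR99021 and at 3.68, 5.15 and 3.93 with AICAR. In DMSO it stood at 6.05, 5.90 and 5.74. These are levels of its brightest probe, which fell with AICAR by 1.65 ± 0.45 (adjusted p = 0.0129). With the mean of its probes the fall was over 1.5 times smaller but still called, so its probes did not all fall alike. Whether the other Hmgb1 probes share the array pattern was not tested. With normexp the difference was -0.54, and whether that value comes from the same probe was not tested. CHIR99021 array 2 also had the lowest share of spots well above background of the 9 arrays, 62.8%, and AICAR array 2 the highest, 67.2%. In the other 8 tested genes no such gap was seen: CHIR99021 array 2 was at most 0.07 below, and AICAR array 2 at most 0.04 above, both other arrays of its group. What this shared pattern contributes to the fall of Hmox1 was not tested.

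**Figure D3:**
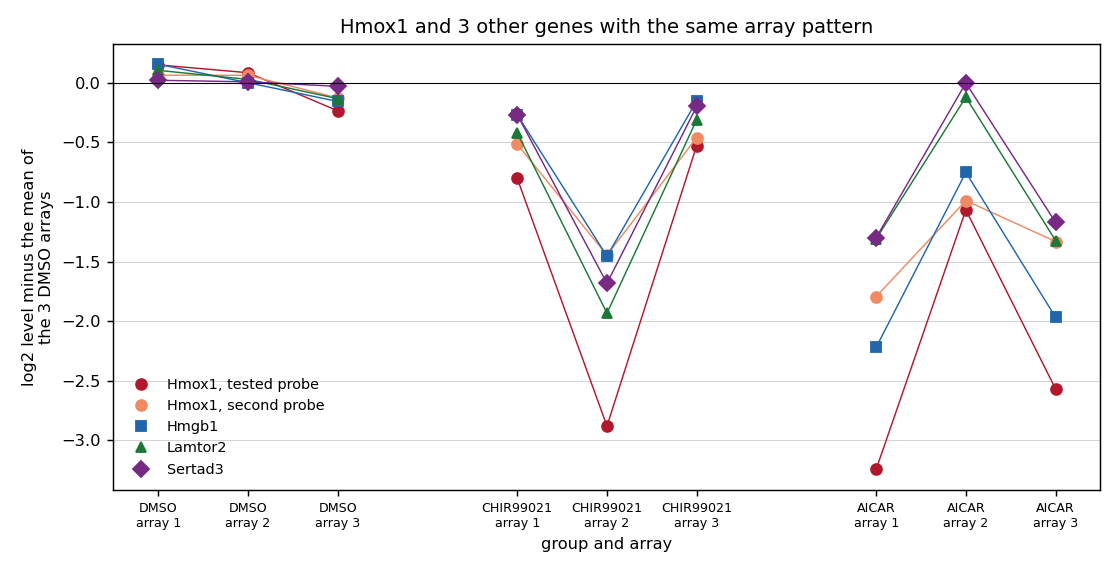
Log2 level of both Hmox1 probes and of Hmgb1, Lamtor2 and Sertad3 on each array, less the mean of the 3 DMSO arrays. In all 5 series CHIR99021 array 2 is the lowest of its group and AICAR array 2 the highest of its group.

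The compounds were also set against each other. Nfe2l2, Keap1, Gclc, Gclm, Gsr and Txnrd1 were higher with CHIR99021 than with AICAR, by 0.26 to 0.61, and Srxn1 and Nqo1 were lower, by 0.40 ± 0.04 (adjusted p = 7.41e-05) and 0.29 ± 0.09 (adjusted p = 0.0204). Hmox1 did not pass (0.89 ± 0.71, adjusted p = 0.307; 1.63 and adjusted p = 0.0424 without CHIR99021 array 2). These are 8 of 9 genes, where 60.7% of features passed (36.2% higher and 24.6% lower), and the arrays did not overlap for 8 of 9 genes and 65.3% of features.

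Most of the 6 higher calls depended on the scaling. With quantile normalisation, with normexp and with the authors' normalised values only Gclm and Txnrd1 were still called higher, and with the spike-in scaling only Txnrd1. Over all features, 59.5% of the calls of this comparison were rises with the 75th percentile and 33.2% with the spike-in scaling, and the median difference moved from 0.10 to -0.10. Txnrd1 (0.61 ± 0.10, adjusted p = 0.00106) and Srxn1 kept their calls in all 20 settings, at 0.38 to 0.71 and -0.61 to -0.39. The call on Nqo1 was lost without CHIR99021 array 3, AICAR array 1 or AICAR array 3 (adjusted p = 0.0685, 0.0603 and 0.0624) and in a fit of these 2 groups alone (adjusted p = 0.0510). Between the compounds, Txnrd1 was lower with AICAR and Srxn1 lower with CHIR99021 under each setting tried.

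**Figure D4:**
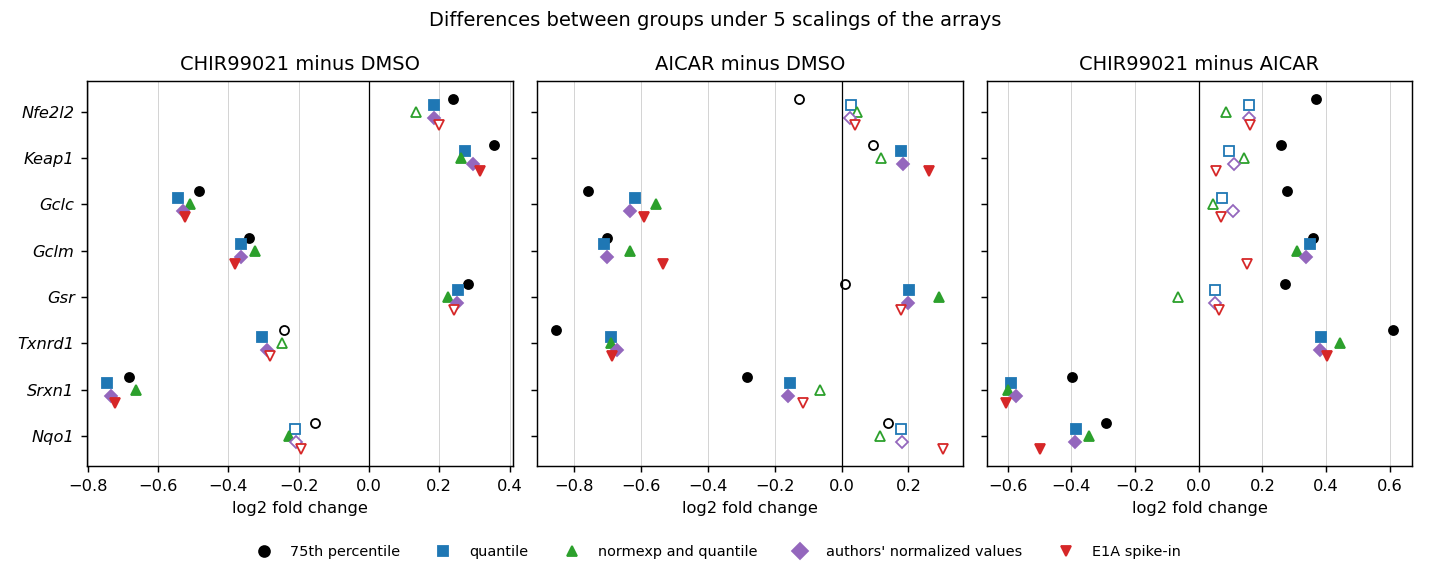
Log2 fold change of 8 of the tested genes (Hmox1, whose changes are larger, is left out) in the 3 comparisons under 5 ways of scaling the arrays; filled markers have an adjusted p under 0.05. Txnrd1 and Srxn1 are called in the same direction under all 5 in the comparison of the compounds, while Nfe2l2, Keap1, Gclc and Gsr are called under the 75th percentile alone.

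The other genes of the pathway were taken from a list of 57, of which 55 were tested. With CHIR99021, 18 rose and 15 fell, and with AICAR 21 rose and 19 fell, around medians of 0.02 and 0.12 where all features had medians of 0.07 and 0.03. With the spike-in scaling the genes that fell numbered 9 and 8. The called genes are 33 and 40 of 55, beside the 51.0% and 60.5% of all features.

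Among 13 other regulators, 5 rose and 2 fell with CHIR99021, and 4 rose and 4 fell with AICAR. The shares of all features called were 51.0% and 60.5%. Nfe2l3, a factor related to NRF2, rose by 1.85 ± 0.10 with CHIR99021 (adjusted p = 4.74e-06) and by 1.84 ± 0.10 with AICAR (adjusted p = 3.16e-06), and with normexp by 0.76 and 0.71. Bach1, the repressor that competes with NRF2 and restrains Hmox1, rose by 0.56 ± 0.08 with each compound (adjusted p = 0.000571 and 0.000386). Its relative Bach2 rose by 2.26 ± 0.11 with CHIR99021 (adjusted p = 2.54e-06; 1.44 with normexp). With AICAR the difference in Bach2 was 0.29 ± 0.11 (adjusted p = 0.0539; 0.0290 without DMSO array 3), and it ranged from 0.08 with normexp to 0.45 with the spike-in scaling, where it passed (adjusted p = 0.0181). Both repressors of the family were thus higher with CHIR99021.

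The small MAF proteins, which NRF2 and the BACH proteins both need as partners, moved separately. Maff rose by 1.31 ± 0.06 with AICAR (adjusted p = 1.17e-06) while with CHIR99021 the difference was -0.00 ± 0.06 (adjusted p = 0.995; 0.02 and not called with normexp). Mafg rose by 0.32 ± 0.05 with CHIR99021 (adjusted p = 0.00125) and fell by 0.54 ± 0.05 with AICAR (adjusted p = 5.12e-05; -0.33 with normexp), but its 3 probes ranged from -0.03 to 0.32 with CHIR99021 and the mean of the probes did not pass (adjusted p = 0.0834).

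Of the genes that act on NRF2 protein, Cul3, Sqstm1 and Gsk3b had small differences. Cul3, the ligase scaffold bound by KEAP1, rose by 0.17 ± 0.06 with CHIR99021 (adjusted p = 0.0434), a call lost under all 4 other scalings and when any of 7 single arrays was left out. With AICAR it fell by 0.21 ± 0.06 (adjusted p = 0.0180), a call lost with the spike-in scaling and without DMSO array 2, DMSO array 3 or AICAR array 2. Sqstm1, encoding p62, which binds KEAP1, fell by 0.20 ± 0.06 with CHIR99021 (adjusted p = 0.0216; lost with the spike-in scaling, and 0.0716, 0.0683 and 0.0719 without DMSO array 1 and CHIR99021 arrays 2 and 3), and with AICAR the difference was 0.15 ± 0.06 (adjusted p = 0.0510; 0.0349 and 0.0410 without CHIR99021 array 1 and AICAR array 1). Under all 4 other scalings Sqstm1 was called higher with AICAR, at 0.18 to 0.32 (adjusted p = 0.0104 to 0.0330). Gsk3b, the kinase that CHIR99021 inhibits, differed by 0.28 ± 0.11 with CHIR99021 (adjusted p = 0.0605; 0.0116 without AICAR array 1) and by 0.15 ± 0.11 with AICAR (adjusted p = 0.273). The difference passed with CHIR99021 under normexp (adjusted p = 0.0230) and in the fit of 2 groups (adjusted p = 0.0193), and with AICAR under normexp (0.35, adjusted p = 0.00201) and quantile normalisation (0.28, adjusted p = 0.0477). The 3 Gsk3b probes ranged from -0.06 to 0.28 with CHIR99021 and from 0.04 to 0.21 with AICAR. Rbx1 and Btrc, regulators of the same list, are named here after their values were seen. Rbx1 fell by 0.12 with CHIR99021 (adjusted p = 0.0455) and 0.41 with AICAR (adjusted p = 6.99e-05), each called under 3 of 4 other scalings. Its 3 probes ranged from -0.12 to 0.21 and from -0.41 to 0.04. Btrc did not pass (adjusted p = 0.143 and 0.0738), but its 2 probes ranged from -0.54 to -0.14 and from -0.69 to -0.17.

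Glutathione genes outside the core moved in both directions. Of 12 tested, 3 rose and 5 fell with CHIR99021, and 6 rose and 6 fell with AICAR. Of all features 51.0% were called with CHIR99021 and 60.5% with AICAR. Gsta3, a glutathione S-transferase, rose by 2.30 ± 0.06 with CHIR99021 (adjusted p = 1.91e-07) and by 1.00 ± 0.06 with AICAR (adjusted p = 6.19e-06). Gsta2, another transferase of the alpha class, rose by 2.82 ± 0.22 with AICAR (adjusted p = 1.65e-05; 0.90 with normexp), from a level too near background on 1 of the 3 arrays of the DMSO group. The alpha-class genes are close copies, so their probes may share transcripts. Gpx2, a glutathione peroxidase, rose by 1.60 ± 0.09 with CHIR99021 (adjusted p = 5.96e-06) and fell by 0.27 ± 0.09 with AICAR (adjusted p = 0.0337), the fall being lost under all 4 other scalings and without DMSO array 1 or 3 or AICAR array 2 or 3. The microsomal transferases Mgst1 and Mgst2 fell with both compounds, Mgst1 by 1.11 ± 0.07 and 1.65 ± 0.07 and Mgst2 by 1.00 ± 0.08 and 0.92 ± 0.08 with CHIR99021 and AICAR respectively (adjusted p at most 3.76e-05). Gss, which completes glutathione after the ligase and is named here after its values were seen, rose by 0.97 ± 0.07 with CHIR99021 (adjusted p = 1.45e-05), opposite to Gclc and Gclm, and by 0.29 ± 0.07 with AICAR (adjusted p = 0.00569; 0.46 with the spike-in scaling).

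Export and detoxification genes also moved in both directions. Of 13 tested, 6 rose and 3 fell with each compound, beside 51.0% and 60.5% of all features called with CHIR99021 and AICAR. Abcc3, an exporter of conjugates, rose by 0.60 ± 0.08 with CHIR99021 (adjusted p = 0.000519) and by 2.03 ± 0.08 with AICAR (adjusted p = 6.51e-07). Abcc2, another conjugate exporter, fell by 1.27 ± 0.12 (adjusted p = 7.29e-05) and 0.88 ± 0.12 (adjusted p = 0.000350). The aldo-keto reductase Akr1b8 fell by 0.62 ± 0.04 with CHIR99021 (adjusted p = 1.84e-05) and by 1.75 ± 0.04 with AICAR (adjusted p = 1.17e-07). These calls were made under all 4 other scalings too, but with normexp Abcc3 rose by only 0.14 and 0.97 and Abcc2 stood at -0.64 and -0.47 with CHIR99021 and AICAR.

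In the 3 smaller roles the genes named were chosen after their values were seen. The thioredoxin role held 5 tested genes, not all of them thioredoxins or peroxiredoxins. Txn1, the thioredoxin that Txnrd1 reduces, rose with both compounds (0.34 ± 0.06 and 0.39 ± 0.06, adjusted p = 0.00148 and 0.000541, with CHIR99021 not with the spike-in scaling). Sesn2 fell with both (-0.44 ± 0.07 and -0.57 ± 0.07, adjusted p = 0.000814 and 0.000134). The peroxiredoxins Prdx1 and Prdx6 fell with AICAR (-0.44 ± 0.05 and -0.41 ± 0.05, adjusted p = 0.000157 and 0.000128, Prdx6 not with the spike-in scaling). Under the other scalings these falls were smaller, -0.29 to -0.26 for Prdx1 and -0.24 to -0.20 for Prdx6. With CHIR99021, Prdx1 and Prdx6 differed by -0.11 and -0.09 and did not pass (adjusted p = 0.0983 and 0.122). Both were called lower with quantile normalisation, the authors' values and the mean of their probes (-0.19 and -0.45). The 4 Prdx6 probes ranged from -0.98 to -0.09 with CHIR99021, and their mean differed by -0.78 with AICAR. Of 6 haem and iron genes, the ferritin heavy chain Fth1 fell by 0.18 ± 0.06 with CHIR99021 (adjusted p = 0.0272; lost with the spike-in scaling, with adjusted p = 0.0796, 0.0741, 0.0880 and 0.0884 without DMSO arrays 1 and 3 and CHIR99021 arrays 1 and 3, and -0.32 to -0.28 and called with quantile normalisation, the authors' values and normexp) and by 0.72 ± 0.06 with AICAR (adjusted p = 1.52e-05). The biliverdin reductases Blvra and Blvrb, which act after haem oxygenase, rose with AICAR by 0.52 ± 0.06 and 0.42 ± 0.05 (adjusted p = 0.000161 and 0.000248). Of 6 genes of NADPH supply, the malic enzyme Me1 rose by 0.83 ± 0.07 with CHIR99021 (adjusted p = 3.39e-05) and 0.25 ± 0.07 with AICAR (adjusted p = 0.0109; 0.42 with the spike-in scaling). The 3 Me1 probes ranged from 0.38 to 0.83 with CHIR99021 and from 0.007 to 0.26 with AICAR. G6pdx, the entry enzyme of the pentose phosphate pathway, differed by 0.04 ± 0.07 with CHIR99021 (adjusted p = 0.651; -0.02 and not called with normexp, quantile normalisation and the authors' normalised values) and fell by 0.26 ± 0.07 with AICAR (adjusted p = 0.0114), a fall lost under all 4 other scalings.

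**Figure D5:**
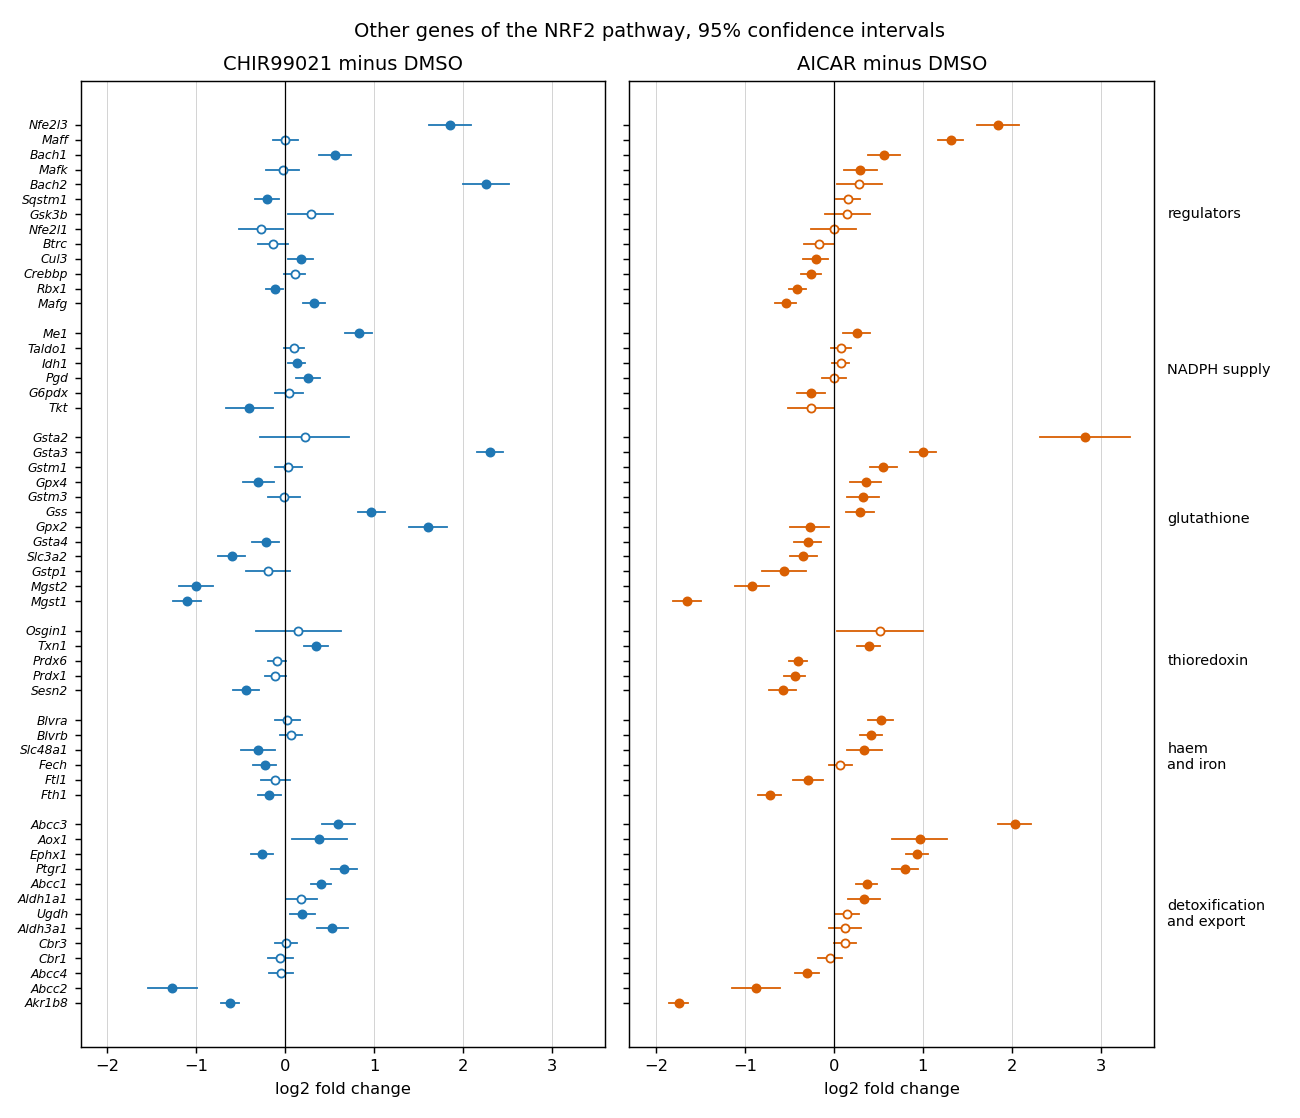
Log2 fold change of the 55 other pathway genes for CHIR99021 (left) and AICAR (right) against DMSO with 95% confidence intervals, in 6 roles and ordered within each role by the AICAR value; filled points have an adjusted p under 0.05. Bach2 and Gpx2 lie far to the right in the CHIR99021 panel, and Gsta2, Abcc3 and Maff in the AICAR panel. Gsta3 and Nfe2l3 lie to the right with both compounds, and Mgst1, Mgst2, Abcc2 and Akr1b8 lie to the left with both.

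The response element core was present in the windows of 14 of 49 other pathway genes with a window, 28.6%, against 14% of all genes. Of these 14 genes, 5 rose, 3 fell and 6 did not pass with CHIR99021, and 5 rose, 7 fell and 2 did not pass with AICAR, beside 51.0% and 60.5% of all features called. Of 33 tested genes whose windows lack it, 10 rose and 9 fell with CHIR99021, and 13 rose and 10 fell with AICAR. Genes with the core moved in both directions with each compound: with AICAR, for example, Maff and Gsta3 rose and Prdx1, Mgst1 and Abcc2 fell. Of the members with the core, Nfe2l2 rose and Gclm and Srxn1 fell with CHIR99021, and Gclm, Txnrd1 and Srxn1 fell with AICAR.

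Antioxidant enzymes outside the NRF2 lists were used for comparison, and whether any of them is an NRF2 target was not tested. The response element core was present for 2 of 20 of them with a window, 10%, against 14% of all genes. Differences were tested for 21 of the 22 enzymes. With CHIR99021, 8 rose and 2 fell, and with AICAR 3 rose and 9 fell, with medians of 0.11 and -0.12. All features had medians of 0.07 and 0.03, and 51.0% and 60.5% of them were called, so these shares of 10 and 12 of 21 lie near the background. These counts moved with the scaling: the 8 rises became 4 or 5 under each of the 4 other scalings, and the 9 falls became 3 with the spike-in scaling. Leaving out single arrays gave 5 to 9 rises and 7 to 11 falls. The glutaredoxin Glrx rose by 1.21 ± 0.06 with CHIR99021 (adjusted p = 2.32e-06) and differed by 0.00 ± 0.06 with AICAR (adjusted p = 0.968; -0.08 to -0.06 and not called with normexp, quantile normalisation and the authors' values). The methionine sulfoxide reductases Msra and Msrb2 rose with CHIR99021 (0.40 ± 0.05 and 0.37 ± 0.06, adjusted p = 0.000311 and 0.000887) and fell with AICAR (-0.55 ± 0.05 and -0.62 ± 0.06, adjusted p = 3.55e-05 and 3.83e-05), each under all 4 other scalings too (Msrb2 with CHIR99021 at 0.24 with normexp). Another such enzyme, Msrb1, rose with AICAR by 0.42 ± 0.04 (adjusted p = 5.49e-05; 0.70 with normexp), and its rise of 0.12 ± 0.04 with CHIR99021 (adjusted p = 0.0422) was lost under all 4 other scalings and when any of 7 single arrays was left out.

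Among the glutathione peroxidases of this comparison list, Gpx3 fell by 0.72 ± 0.10 with CHIR99021 (adjusted p = 0.000610) and Gpx7 rose by 0.49 ± 0.07 with AICAR (adjusted p = 0.000451). Gpx8 fell with both, by 0.42 ± 0.05 and 0.34 ± 0.05 (adjusted p = 0.000357 and 0.000726, the latter lost with the spike-in scaling).

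Nfe2l2 had close neighbours in pattern. Over the 9 arrays and among 16071 features with a gene symbol and no missing value, the centred log2 levels of Ncoa2, Rap1b and Anapc1 were nearest to those of Nfe2l2, with root mean square differences of 0.0281, 0.0366 and 0.0379. They were chosen for this likeness, so their differences from DMSO, 0.18 to 0.20 with CHIR99021 and -0.16 to -0.14 with AICAR, are a description only. The same search could not be made for Slc7a11, which was below the filter.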

How the data were processed

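The deposited scanner files hold intensity values from Agilent Feature Extraction 10.7.3.1, per the file headers (10.7 per the submitters' processing notes). The authors' normalised values, deposited on a log2 scale whose centring is not stated, served as an alternative: its columns have a median of 5.18 and correlate with the log2 processed signal at 0.99962 to 0.99998. Here, the log2 processed signal of 59305 non-control spots was scaled on the 75th percentile of each array, flagged outlier spots were dropped and spots of a probe averaged. Probes well above background on at least 3 of 9 arrays were kept (37773 of 55681), with the brightest probe per gene. Symbols came from RefSeq accessions of GRCm38.p6 and matched 27235 probes (28446 unmatched), while the files' own build, mm9, was used for no coordinate. All 9 arrays were fitted with limma 3.58.1 (lmFit, eBayes; R 4.3.3, package data.table, version 1.17.8), and the script was tested on simulated data. The planned normexp alternative (offset 50) used median signals, since mean signals were not among the columns used here. Confidence intervals are 95%.

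The members, the lists (57 other pathway genes, 22 other antioxidant enzymes, 8 stem cell and 8 fibroblast markers) and the tests were chosen with earlier results of these data known. Besides the members, genes were named from these lists by this rule: the 4 called pathway genes and 2 called antioxidant enzymes with the largest rise and fall in each comparison with DMSO, and Bach1, Mafg, Cul3, Sqstm1, Gsk3b and G6pdx whatever their result. Nfe2l2 and Slc7a11 were to be given their 3 nearest genes in pattern. Others are marked as chosen after their values were seen. Samples of the same number did not pair: their deviations correlated at -0.056 to 0.088. The number of arrays limits the precision.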

Additional observations from a re-analysis of the deposited data

How the results depend on the processing

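Each result was recomputed under 20 other settings, 9 of which left out 1 array and 1 of which (eBayes with trend and robust settings) was chosen after seeing the data. Of the members' fold changes 486 kept direction and side of the threshold, 30 were no longer called, 17 became called and 7 changed sign, and for the other named genes these were 1325, 62, 21 and 29. The cause was not tested.

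For CHIR99021 against DMSO, members called higher numbered 1 with the spike-in scaling (3 in the report) and lower 5 with normexp (3). Other pathway genes called lower numbered 9 with the spike-in scaling (15). Antioxidant enzymes called higher numbered 5, 5, 4 and 5 with normexp, quantile, spike-in and the authors' values (8), and lower 5, 4 and 4 with normexp, quantile and the authors' values (2). For AICAR against DMSO, members called higher numbered 1, 2, 1 and 2 in that order (0), other pathway genes lower 8 with the spike-in (19), and antioxidant enzymes higher 5 with quantile and 5 with the authors' values (3), lower 3 with the spike-in (9). Between the compounds, members higher numbered 2, 2, 1 and 2 (6), and lower 1 in the fit of 2 groups (2). Other pathway genes higher numbered 12, 8 and 12 with quantile, spike-in and the authors' values (19), lower 25 with normexp (16), and antioxidant enzymes higher 7, 6, 4 and 6 (11), lower 6, 5, 5 and 5 (3). Over all features, the spike-in scaling gave 4795 higher with CHIR99021 than DMSO, 4042 lower with AICAR and 3939 higher with CHIR99021 than AICAR, against 8189, 7944 and 9726.

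Signs turned for small differences. Against DMSO with CHIR99021, Gsta2 was -0.00108 and Maff 0.0180 with normexp, and G6pdx -0.0238, -0.0239 and -0.0221 with normexp, quantile and the authors' values. With AICAR, Nfe2l2 was 0.0472, 0.0275, 0.0401 and 0.0264 under the 4 scalings, and Glrx -0.0817, -0.0671 and -0.0583 with normexp, quantile and the authors' values. Between the compounds, Gsr was -0.0651 with normexp, Nfe2l3 -0.20 with the spike-in, and Gsk3b -0.11, -0.0608, -0.0705 and -0.0348 under the scalings and -0.0273 with the mean of its probes.

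Leaving out 1 array gave 5 to 9 antioxidant enzymes higher with CHIR99021 than DMSO, 0 to 1 members higher with AICAR and 1 to 2 members lower with CHIR99021 than AICAR. Signs turned for Maff with CHIR99021 (-0.0382 to 0.0299), for Gsr (-0.0260 to 0.0463), Glrx (-0.0536 to 0.0321) and Gpx3 (-0.0367 to 0.10) with AICAR, and for Nfe2l3 (-0.0469 to 0.0819) and Bach1 (-0.0567 to 0.0565) between the compounds.

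The replicate numbers do not pair the samples: in 4 of 18 cases an array correlated best with its own number in another group. With the replicate number as a block, 7619 features were called higher and 5101 lower with CHIR99021 (8189 and 5517 without), 7952 and 7522 with AICAR (8318 and 7944), and 9297 and 6393 between the compounds (9726 and 6609). Calls were lost with AICAR for Hmox1 (adjusted p = 0.0526) and Gpx2 (0.0548). With CHIR99021 they were lost for Msrb1 (0.0882), Cul3 (0.0911), Fth1 (0.0578) and Col1a1 (0.0830). No other call given in the report on the members or on the genes named by the rule changed under the block. Nor did any other call on genes named after their values were seen, as far as these were run. These were Gss, Slc3a2, Txn1, Sesn2, Prdx1, Prdx6, Fth1, Blvra, Blvrb, Me1, Hmgb1, Utf1, Tdgf1 and the fibroblast markers given with values, each against DMSO.

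Gsta2 gave no value where a probe had to be well above background on all 9 arrays, and the Slc7a11 probe never passed the filter on dim probes.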
